A study of Mus musculus with 12 samples.

Results

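The genes described here are 10 genes of apolipoproteins and of VLDL assembly, taken by name from the 54232 gene rows of a liver RNA-seq count table: *Apob*, *Apoa1*, *Apoa2*, *Apoa4*, *Apoa5*, *Apoc2*, *Apoc3*, *Apoe*, *Mttp* and *Tm6sf2*. All 10 were tested, along with every other gene that exceeded 2 reads in 6 or more livers (17509 genes in all). Livers of 6 WT and 6 *Marchf6* LKO male C57Bl/6J mice, 10 weeks old, on chow and fasted for 4 h, were sequenced with 1 library per mouse. By the methods of the study both groups carry floxed *Marchf6* alleles (fl/fl), the LKO mice with and the WT mice without Cre. The Cre is driven by the albumin promoter, which is active in hepatocytes, and the study describes the knockout as hepatocyte-specific. Which liver cells kept the gene was not tested here. The series text places the deletion at exon 2, while the methods name the second exon as well as the third.

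VLDL is built in the endoplasmic reticulum of hepatocytes around 1 molecule of apolipoprotein B, which receives lipid from the microsomal triglyceride transfer protein while it is made and is degraded when lipid is short. Smaller apolipoproteins move between the surfaces of VLDL, chylomicrons and HDL, where they activate or inhibit lipases and serve as ligands of receptors. The liver makes most of the circulating apolipoproteins, and the intestine is a further source, mainly of apolipoproteins B, A-I and A-IV.

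Total counts were 14860414 to 22111926 reads per liver. Values are given as CPM (reads of a gene relative to the size of its library) after TMM scaling, which corrects library totals for differences in composition. The 10 hepatocyte markers examined had at least 8457 reads in every liver. *Marchf6* itself had 241 ± 8.36 CPM (SD, n = 6) in WT and 226 ± 16.5 CPM in LKO livers (log2 fold change -0.09, adjusted p = 0.585), a count over the whole gene that does not show the deleted exon. The library numbers of the WT livers all come before those of the LKO livers, and genotype and library order cannot be told apart. In whole liver, fewer cells of a type and less RNA per cell cannot be told apart either.

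*Apoa4*, *Apoa1*, *Apoa5* and *Apoc3* lie within 43340 nt of chromosome 9 (46228580 to 46271919, GRCm38), with *Apoc3* on the minus strand and the others on the plus strand. *Apoe* and *Apoc2* lie within 27610 nt on the minus strand of chromosome 7 (19671579 to 19699188). *Apob* is on chromosome 12 (7977648 to 8016835, plus strand), *Apoa2* on chromosome 1 (171225054 to 171226379, plus strand), *Mttp* on chromosome 3 (138089854 to 138144968, minus strand) and *Tm6sf2* on chromosome 8 (70072924 to 70080066, plus strand). RefSeq promoter sequences (GRCm38.p6) were at hand for 8 of the 10 genes, and those of *Apoc3* and *Tm6sf2* were not used here. The sequence before the annotated gene start is shown for the 3 plus-strand neighbours on chromosome 9, of which *Apoa4* differed most between the genotypes and the others little, and for *Apob*, the structural protein of VLDL. Capitals mark matches to a searched motif, and all 4 are read 5′ to 3′ on the plus strand, at chr9:46240594-46240695, chr9:46228380-46228579, chr9:46268383-46268632 and chr12:7977427-7977647 in this order.
Apoa4: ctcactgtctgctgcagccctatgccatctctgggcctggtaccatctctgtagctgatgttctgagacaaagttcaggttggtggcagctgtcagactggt
Apoa1: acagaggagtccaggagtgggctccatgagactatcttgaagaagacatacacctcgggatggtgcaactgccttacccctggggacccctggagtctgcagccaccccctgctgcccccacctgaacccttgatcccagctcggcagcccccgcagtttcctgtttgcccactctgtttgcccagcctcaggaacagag
Apoa5: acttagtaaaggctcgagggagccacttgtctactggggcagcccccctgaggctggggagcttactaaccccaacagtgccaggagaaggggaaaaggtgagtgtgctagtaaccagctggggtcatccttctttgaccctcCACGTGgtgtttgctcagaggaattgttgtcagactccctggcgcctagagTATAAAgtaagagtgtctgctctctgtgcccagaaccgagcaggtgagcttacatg
Apob: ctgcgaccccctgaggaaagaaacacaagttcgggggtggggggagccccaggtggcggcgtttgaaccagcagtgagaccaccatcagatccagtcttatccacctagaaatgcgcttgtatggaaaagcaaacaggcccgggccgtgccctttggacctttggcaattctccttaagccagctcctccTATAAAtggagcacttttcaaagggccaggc

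The 250 bases before the RefSeq start site were searched on both strands for TATAAA (the TATA box), AGGTCA (a nuclear receptor half-site), TGACGT (part of a cAMP response element), CACGTG (an E-box) and CAAAGTCCA (a sequence bound by HNF4A). No matches overlapped each other. TATAAA was present before *Apob*, *Apoa2* and *Apoa5*, and it occurred in 12.97% of the 27025 promoters of the same length. Its first base lay at -60, -212 and -56 from the RefSeq start site in this order. *Apoa5* also held CACGTG, which occurred in 6.05% of promoters. AGGTCA (13.8% of promoters) was present before *Apoc2*, and TGACGT (6.56% of promoters) before the RefSeq start site of *Mttp* on the opposite strand. That start site lies 1550 nt inside the annotated gene, so the *Mttp* window and its match fall within the gene. The RefSeq start sites of *Apoa4*, *Apoa1* and *Apob* lie 148, 50 and 29 nt inside the annotated gene. These last bases of their windows were searched but are not printed above, where each sequence ends at the annotated start. CAAAGTCCA (0.381% of promoters) was in none of the 8 windows, and the windows of *Apoa4*, *Apoa1* and *Apoe* held none of the 5 motifs. No match says only that these letters are not in this window.

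To assess whether loss of hepatocyte *Marchf6* altered the expression of these genes, WT and LKO livers were compared with edgeR's quasi-likelihood test. None of the 10 genes passed an adjusted p of 0.05 over all genes tested, against 0.428% of all genes (75 of 17509, with 0.274% higher and 0.154% lower in LKO livers). At an unadjusted p under 0.05 the count was 3 of 10, with *Apoa4* higher and *Apob* and *Apoc3* lower, against 11.7% of all genes in either direction and 5.36% in the lower direction. With limma voom the count past the adjusted threshold was 0, and with DESeq2 it was 1. The groups overlapped for all 10 genes, while 1.26% of all genes had groups that did not overlap. The log2 fold change was below 0 for 8 of the 10 genes, against 50.0% of all genes, with a median of -0.02 over the 10 genes and 0.00016 over all genes tested. This count turned with the scaling: it was 2 of 10 (*Apob* and *Apoc3*) with library totals alone, where the median of all genes was 0.06, and 6 of 10 with upper-quartile normalization.

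**Figure D1:**
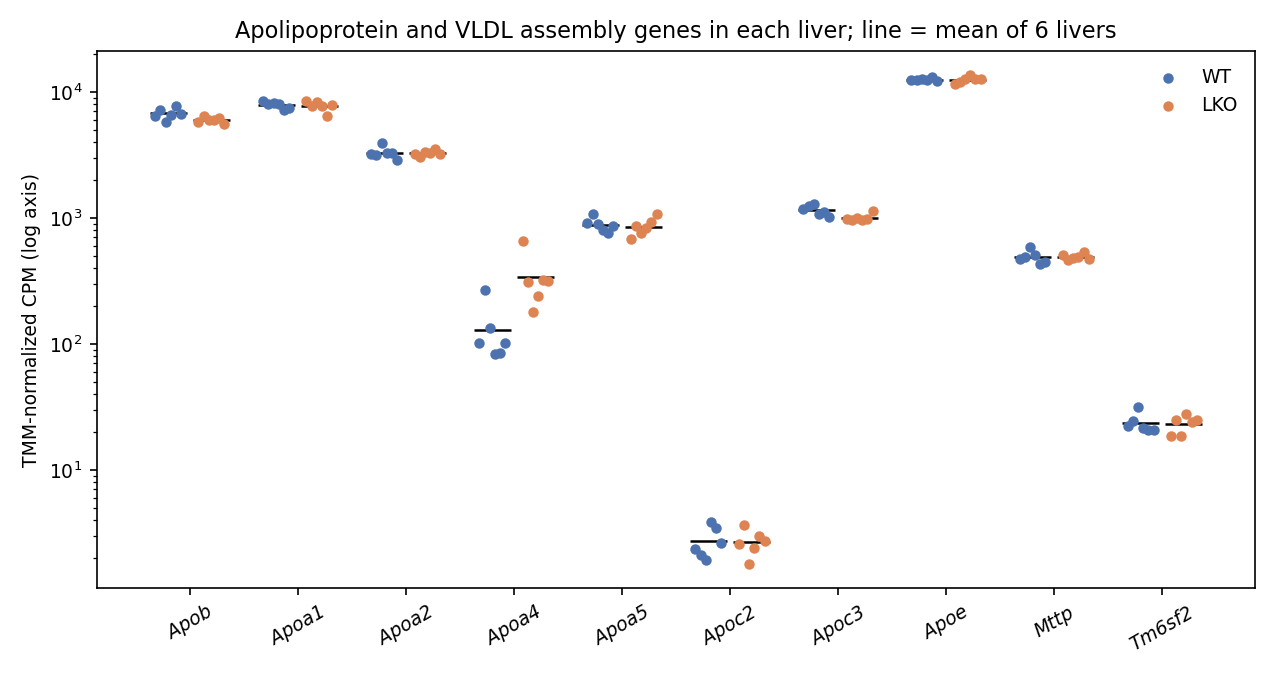
Level of each of the 10 genes in each liver in TMM-normalized CPM on a log axis, with WT in blue and LKO in orange; points are livers and lines are means of 6 livers. *Apoa4* is the gene whose groups are farthest apart, with means of 128 CPM in WT and 337 CPM in LKO livers, and *Apoe* is the highest at about 12542 CPM in WT livers.

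Of the structural proteins, apolipoprotein B stays with its particle from assembly to clearance. *Apob* had 5739 CPM in the lowest WT liver, a median of 6639 and 7791 CPM in the highest. LKO livers had 5612 CPM at the lowest, a median of 5956 and 6395 CPM at the highest. All 6 LKO values were below the WT mean, 5 of them within the WT range and replicate 6 below it. Means were 6759 ± 699 CPM in WT and 5986 ± 278 CPM in LKO livers (SD, n = 6 each). The log2 fold change of -0.18 ± 0.08 (SE) did not pass the test (adjusted p = 0.402, and p = 0.0281 in an exact two-sided permutation test over 924 assignments, in which the smallest possible p is 0.00216).

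Apolipoproteins A-I and A-II are the main proteins of HDL. For *Apoa1*, WT livers spanned 7193 to 8489 CPM with a median of 7998, and LKO livers spanned 6397 to 8404 CPM with a median of 7851. The ranges overlapped for all but the lowest LKO liver, replicate 5, and the log2 fold change was -0.02 with a 95% confidence interval of -0.19 to 0.15 (adjusted p = 0.946). *Apoa2* spanned 2899 to 3936 CPM in WT (median 3239) and 3061 to 3519 CPM in LKO livers (median 3259). All LKO values of *Apoa2* lay within the WT range, and its log2 fold change was -0.01 with an interval of -0.17 to 0.15 (adjusted p = 0.976).

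*Apoa4*, which encodes an apolipoprotein of HDL and of newly made triglyceride-rich particles, had the largest difference of the 10 genes. WT livers had 82.6 CPM at the lowest, a median of 101 and 268 CPM at the highest. LKO livers had 179.5 CPM at the lowest, a median of 312 and 658 CPM at the highest. Every LKO liver was above the WT mean, and the overlap came from WT replicate 2, the only WT liver above the lowest LKO liver. Means were 128 ± 70.9 CPM in WT and 337 ± 167 CPM in LKO livers (SD, n = 6 each), a fold of 2.63 with a 95% confidence interval of 1.62 to 4.27. The log2 fold change of 1.39 ± 0.33 (SE) missed the threshold with an adjusted p of 0.0828, and an exact two-sided permutation test of this gene alone gave p = 0.00649. The call depended on the test and on 1 liver: *Apoa4* passed with DESeq2 (adjusted p = 0.0184), without a filter on low counts (0.0323), with library totals alone (0.0491) and without WT replicate 2 (log2 fold change 1.75, adjusted p = 0.0112). Without LKO replicate 1, the highest liver, the log2 fold change was 1.09 with an adjusted p of 0.133, and over all alternatives the adjusted p ranged from 0.0112 to 0.185.

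*Apoa4* is also made in the intestine, and markers of enterocytes were examined for this reason. Of 6 markers, 2 were tested and 1 of them passed, against 0.428% of all genes. *Fabp2*, a fatty acid binding protein listed for enterocytes, was higher in LKO livers (log2 fold change 0.63, adjusted p = 0.0197). It had 754 to 1314 reads in WT and 1404 to 2791 reads in LKO livers. *Vil1* had at most 7 reads per liver, *Cdx2* at most 1 and *Lct* at most 2, while *Cdx1* and *Alpi* had 0 reads in every liver. The summed level of the list was 48.6 to 80.6 CPM in WT and 87.1 to 120 CPM in LKO livers, nearly all of it *Fabp2*. The source of the *Apoa4* reads was not tested.

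*Apoa4* shares 69.8% of its 1815 exon bases with genes annotated on the opposite strand, 634 bases with *Gm47528* and 632 with *Gm10680*. *Gm47528* had 28 to 95 reads in WT and 43 to 222 reads in LKO livers, and *Gm10680* had 0. The strand setting of the counting is not given in the sources used here, so reads of *Apoa4* and of an antisense gene cannot be told apart. With the reads of *Gm47528* added to those of *Apoa4*, the log2 fold change was 1.38 (adjusted p = 0.0854).

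**Figure D2:**
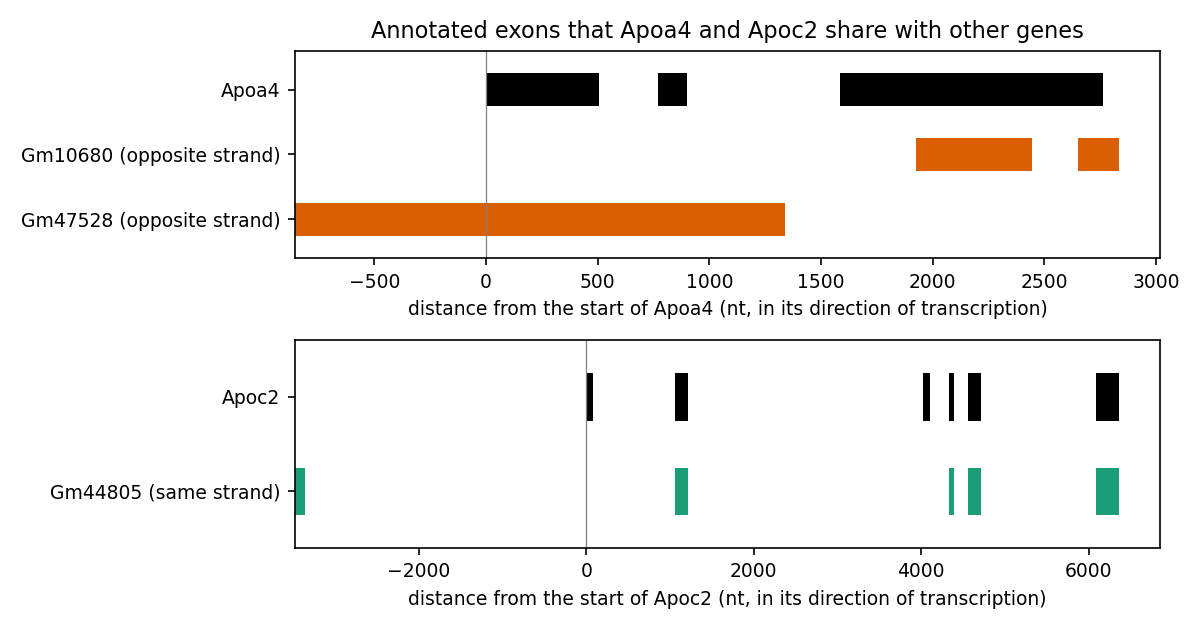
Annotated exons of *Apoa4* (upper panel) and *Apoc2* (lower panel) in black, with exons of overlapping genes on the same strand in green and on the opposite strand in orange, by distance from the start of the gene in nt. Both opposite-strand genes together cover 69.8% of the exon bases of *Apoa4*, and *Gm44805* covers 79.5% of those of *Apoc2*.

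*Apoa5* and *Apoc3*, the other neighbours in the chromosome 9 cluster, act on lipoprotein lipase in opposite directions, since apolipoprotein A-V promotes and apolipoprotein C-III inhibits the removal of triglycerides from plasma. *Apoc3* had 1012 to 1298 CPM in WT livers with a median of 1141, and 969 to 1134 CPM in LKO livers with a median of 981. All 6 LKO livers were below the WT mean, and 5 of them lay close together while replicate 6 stood above them. The log2 fold change of -0.19 ± 0.07 (SE) did not pass the test (adjusted p = 0.302, and p = 0.0216 in an exact two-sided permutation test). *Apoa5* had 759.5 to 1064 CPM in WT (median 884) and 677 to 1070 CPM in LKO livers (median 843), with ranges that overlapped almost entirely and a log2 fold change of -0.05 with an interval of -0.28 to 0.18 (adjusted p = 0.903). Within this cluster the fitted differences thus ran from 1.39 for *Apoa4* to -0.19 for *Apoc3*.

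On chromosome 7, *Apoe* encodes the ligand by which remnants are taken up, and *Apoc2* the activator of lipoprotein lipase. *Apoe* spanned 12286 to 13125 CPM in WT (median 12445) and 11497 to 13588 CPM in LKO livers (median 12667). The LKO livers surrounded the WT range on both sides, and the log2 fold change was -0.0013 with an interval of -0.14 to 0.14 (adjusted p = 0.997). *Apoc2* had 1.91 to 3.84 CPM in WT (median 2.49) and 1.79 to 3.62 CPM in LKO livers (median 2.63), which is 30 to 69 reads per liver. Its log2 fold change was -0.03, and the interval of -0.46 to 0.40 is the widest of the genes other than *Apoa4*. *Apoc2* shares 646 of its 813 exon bases (79.5%) with *Gm44805* on the same strand, a gene with 0 reads in every liver, so only 167 bases belong to *Apoc2* alone. Whether reads in the shared bases were counted depends on the overlap setting, which is not given in the sources used here, and the low level of *Apoc2* is therefore uncertain.

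The last pair acts in assembly. *Mttp* encodes the large subunit of the microsomal triglyceride transfer protein and *Tm6sf2* a membrane protein needed for full lipidation of VLDL. *Mttp* had 433 to 591 CPM in WT (median 482) and 462 to 535 CPM in LKO livers (median 485). The LKO range lay inside the WT range, and the log2 fold change was 0.0029 with an interval of -0.16 to 0.17 (adjusted p = 0.995). *Tm6sf2* had 20.6 to 31.2 CPM in WT (median 21.7) and 18.6 to 27.6 CPM in LKO livers (median 24.4), with a log2 fold change of -0.02 and an interval of -0.28 to 0.24 (adjusted p = 0.969). The genotypes overlapped for both genes. The intervals of *Apoa1*, *Apoa2*, *Apoe* and *Mttp* leave room for differences on the log2 scale down to -0.19 (*Apoa1*) and up to 0.17 (*Mttp*).

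**Figure D3:**
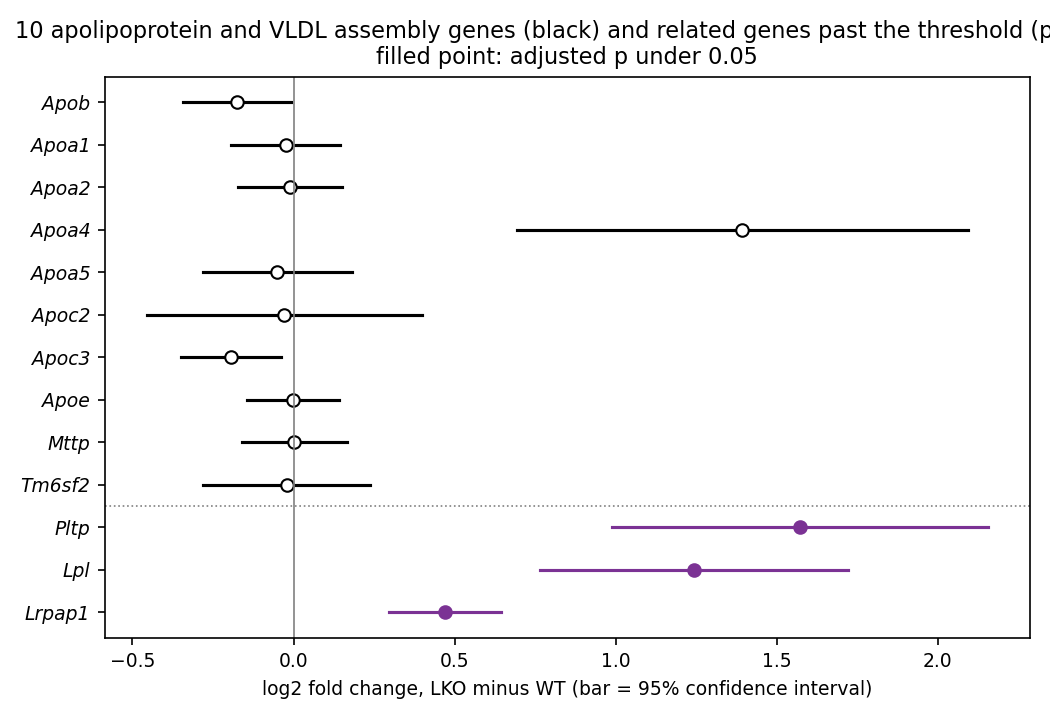
Log2 fold change between LKO and WT livers with its 95% confidence interval for the 10 genes (black) and for the 3 related genes that passed an adjusted p of 0.05 (purple, filled). *Apoa4* lies at 1.39 with an open point, since its adjusted p was 0.0828, and the other 9 genes lie between -0.19 and 0.0029.

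Together the 10 genes took 3.17% to 3.40% of all counts in WT livers and 3.13% to 3.38% in LKO livers. The mean share was 3.25% ± 0.0804 in WT and 3.29% ± 0.0844 in LKO livers (SD, n = 6 each), a ratio of 1.01, and the groups overlapped. Relative to the TMM-scaled total in place of the raw total the ratio was 0.973, so its side of 1 depended on the denominator. *Apoe* took the most, with 1.23% ± 0.0531 of all counts in WT and 1.28% ± 0.0730 in LKO livers, and ranked 5 among all genes by mean share. *Apoa1* took 0.772% ± 0.0347 and 0.789% ± 0.0734 (rank 8), and *Apob* 0.664% ± 0.0777 and 0.610% ± 0.0276 (rank 18). These 3 made up 82.0% ± 1.43 of the reads of the 10 genes in WT and 81.4% ± 0.995 in LKO livers. *Apoa4* took 0.386% ± 0.207 of the reads of the 10 genes in WT and 1.05% ± 0.532 in LKO livers, so the member with the largest fold added little to the sum.

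**Figure D4:**
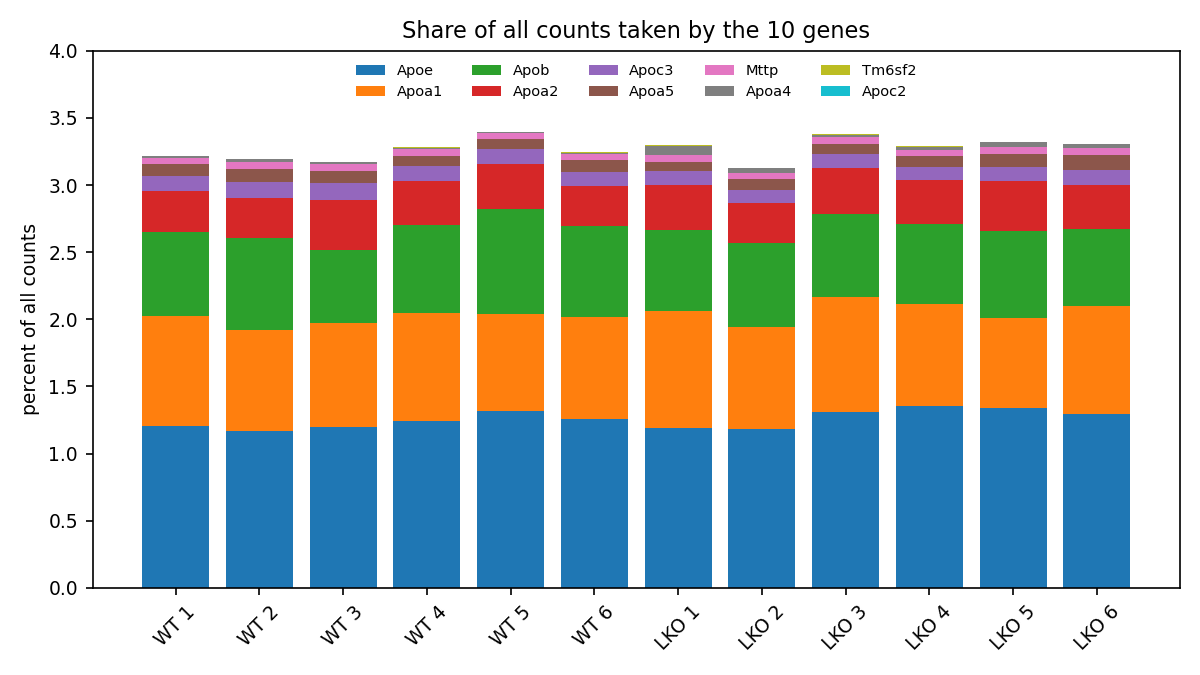
Share of all counts taken by each of the 10 genes in each liver, stacked, in percent. The 12 bars lie between 3.13% and 3.40%, with *Apoe*, *Apoa1* and *Apob* as the main parts in every liver.

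Levels of different genes were compared as CPM per kb of merged exons, since longer transcripts yield more reads. In WT livers *Apoa1* (6375 ± 384), *Apoa2* (6130 ± 644) and *Apoe* (5866 ± 141 CPM per kb) came first, and the ranges of neighbours among these 3 overlapped in both genotypes. *Apoc3* followed at 1134 ± 105 CPM per kb, 5.17 times below *Apoe* and with no overlap. *Apob*, whose merged exons span 13934 nt, stood at 485 ± 50.2 CPM per kb and overlapped *Apoa5* at 351 ± 42.1. *Mttp* (79.1 ± 9.00) and *Apoa4* (70.8 ± 39.1) overlapped in WT livers and changed places in LKO livers, where *Apoa4* had 186 ± 91.8 CPM per kb, *Mttp* had 79.2 ± 4.36 and the ranges no longer overlapped. In LKO livers the range of *Apoa4* also overlapped that of *Apoa5* (338 ± 54.4 CPM per kb). *Tm6sf2* (12.3 ± 2.14) and *Apoc2* (3.34 ± 0.946) came last in WT livers. With the length of the longest coding transcript, 7 of the 10 kept their place and *Apoe* came first. *Mttp* then had a mean of 124 CPM per kb in both genotypes, and *Apoa4* kept its values. The lowest LKO liver of *Apoa4* (98.9 CPM per kb) lay below this mean, so with this length the 2 ranges overlapped in LKO livers. An alternative added after seeing the data divided all reads of a gene by the exon bases that no other gene on the strand shares. With it 8 kept their place, and *Apoc2* (16.3 CPM per kb in WT livers) came before *Tm6sf2* (12.3). For *Apoc2* this value assumes that no read in the shared bases was counted, which is not known. Bases shared with genes on the opposite strand, 69.8% of those of *Apoa4*, were kept in every length used.

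**Figure D5:**
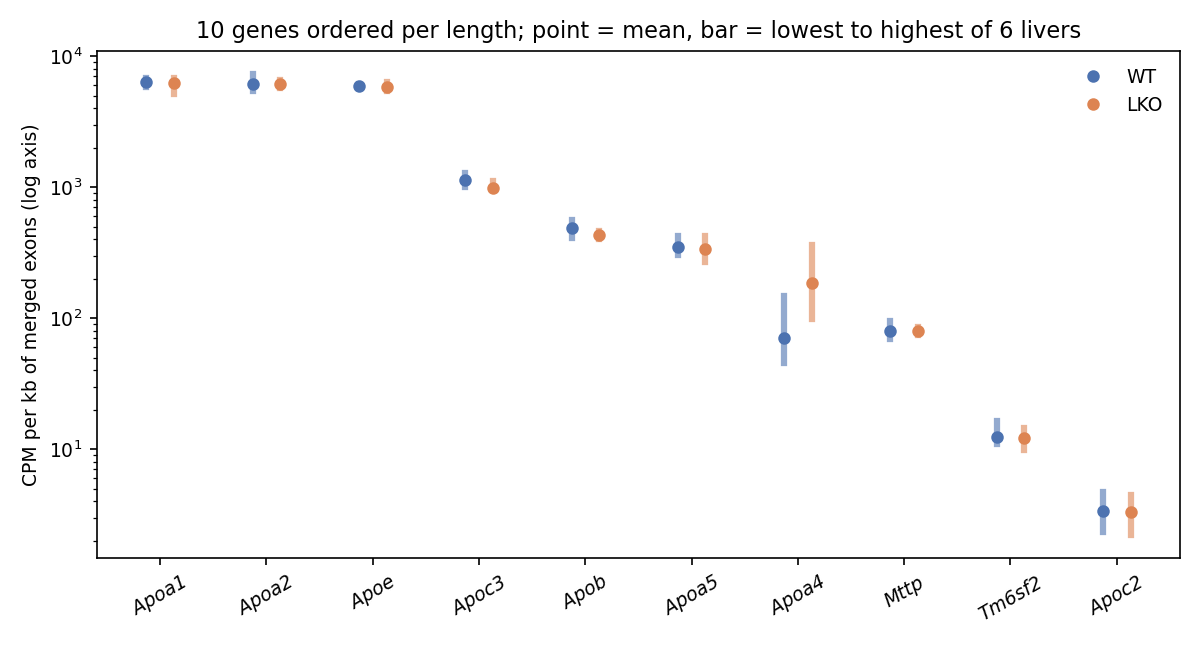
Level of the 10 genes per length in CPM per kb of merged exons on a log axis, ordered by the mean of 12 livers, with points as means and bars from the lowest to the highest of 6 livers per genotype. *Apoa4* is the only gene of the 10 whose place differs between WT (70.8 CPM per kb, below *Mttp*) and LKO livers (186 CPM per kb, above *Mttp*), apart from *Mttp* itself.

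To see which of the genes varied together among mice of a genotype, log2 CPM were taken as deviations from the genotype mean over 12 livers and correlated for all 45 pairs. No pair passed an adjusted p of 0.05 over the 45 pairs in a two-sided permutation test within genotype (100000 draws), by Pearson's r or by Spearman's rho, and at an unadjusted p under 0.05 the counts were 1 and 3. The values of r ranged from -0.67 to 0.81 with a median of 0.03. *Apoa2* and *Mttp* had the highest r of 0.81 (rho = 0.55, permutation p = 0.0135 and 0.0851, adjusted p = 0.550 and 0.544). Without WT replicates 3 and 6, the livers farthest from the median of *Apoa2*, r was 0.48. *Apob* and *Mttp* had the lowest r of -0.67 (rho = -0.34, permutation p = 0.0644 and 0.329, adjusted p = 0.550 and 0.842), which was 0.08 without WT replicates 3 and 5.

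Among 7788 tested genes with a mean of at least 10 CPM, the 5 whose log2 CPM over the 12 livers were most like those of *Apob* were *Trip12* (r = 0.89), *Antxr2* (r = 0.88), *Ttc39b* (r = 0.87), *Zc3hav1* (r = 0.87) and *Ubap2* (r = 0.86). For *Apoa1* they were *Polr1c* (r = 0.90), *Gars* (r = 0.85), *Tram1* (r = 0.84), *Ints11* (r = 0.83) and *Elp5* (r = 0.83). None of the other 9 genes was among the first 5 of either. These values are a description over 12 livers that share a scaling step and a genotype difference, and the genes are the extremes of a long search.

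Further genes of lipoprotein metabolism were examined in 9 lists. Of their 184 genes, 178 were tested and 3 passed, all higher in LKO livers (0.274% of all genes did), and 41 (23.0%) had an unadjusted p under 0.05, against 11.7% of all genes. Most of the 41 were lower in LKO livers, among them 8 transcription regulators and 6 genes of quality control. Those that were higher included 4 of the receptor list and 3 of plasma remodelling. Over all genes, 938 were lower and 1109 higher at this level. *Pltp*, the phospholipid transfer protein that remodels HDL, had 25.0 to 92.3 CPM in WT and 110 to 170.1 CPM in LKO livers with no overlap (log2 fold change 1.57 ± 0.27, adjusted p = 0.0171). *Lpl*, lipoprotein lipase, had 16.96 to 36.3 CPM in WT and 44.5 to 111 CPM in LKO livers with no overlap (1.24 ± 0.22, adjusted p = 0.0207). *Lrpap1*, a chaperone of LDL receptor family members, had 32.7 to 40.6 CPM in WT and 40.2 to 56.0 CPM in LKO livers with 1 liver of each group in the overlap (0.47 ± 0.08, adjusted p = 0.0168). The first 2 are of the list on plasma remodelling (14 genes, 7 above and 7 below 0, median log2 fold change 0.03). Without WT replicate 5, 0 of the related genes passed, and without WT replicate 3 there were 5.

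Of the list that holds *Lrpap1*, on lipoprotein receptors and their regulators, 1 of 17 passed, with a median of 0.04. *Lrp1*, a remnant receptor of hepatocytes, had 1583 ± 176 CPM in WT and 1231 ± 107 CPM in LKO livers (log2 fold change -0.36 ± 0.08, adjusted p = 0.0809). Of the quality control and degradation list, on which nascent apolipoprotein B depends, 0 of 18 passed in either direction, 6 were lower with an unadjusted p under 0.05 (5.36% of all genes were), 16 had a log2 fold change below 0 (50.0% of all genes did) and the median was -0.15. *Hsp90b1*, a chaperone of the endoplasmic reticulum, had 894 CPM in WT and 648 CPM in LKO livers on average (-0.46 ± 0.11, adjusted p = 0.0935), and *Pdia4*, a disulfide isomerase, had 264 and 189 CPM (-0.48 ± 0.13, adjusted p = 0.134). Both were below the WT mean in all 6 LKO livers. Of the 21 genes listed for apolipoprotein B lipidation and VLDL assembly 0 passed, with a median of -0.05. An unadjusted p under 0.05 was found for 4, of which 2 were higher and 2 lower in LKO livers. There *Pdia3*, another disulfide isomerase, had groups that did not overlap (-0.35 ± 0.08, adjusted p = 0.0878). *Acat2* had a log2 fold change of 0.50 ± 0.13 (adjusted p = 0.107). It is counted among the 4, but as the cytosolic acetoacetyl-CoA thiolase it acts in sterol synthesis rather than in VLDL assembly.

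In the other 5 lists 0 genes passed, against 0.428% of all genes. Unadjusted p-values under 0.05 were found for 5 of 17 further apolipoproteins, 2 of 19 genes of export and 1 of 8 of mRNA editing. They were also found for 9 of 34 transcription regulators and 4 of 32 genes beside the loci. All of these but 1 transcription regulator and 1 gene beside the loci were lower in LKO livers. Over all genes 11.7% had such a p-value in either direction and 5.36% in the lower direction. Of 20 further apolipoproteins and proteins of lipoproteins, 17 were tested. A log2 fold change below 0 was found for 14 of these, against 50.0% of all genes. Their median was -0.13, with *Apol9a* at -0.61 (adjusted p = 0.194) and *Apol7a* at -0.42 (adjusted p = 0.323). Of 19 tested genes of export from the endoplasmic reticulum the median was -0.06, and the COPII coat genes *Sec23a* and *Sec24a* were both at -0.15 (adjusted p = 0.382 and 0.414). The 8 genes of *Apob* mRNA editing, by which the shorter apolipoprotein B48 arises, had a median of -0.09, with *Dnajb11* at -0.36 (adjusted p = 0.206) and *Syncrip* at -0.16 (adjusted p = 0.442). Of 34 transcription regulators 20 were below 0, against 50.0% of all genes. Their median was -0.06, with *Pparg* at 0.70 (adjusted p = 0.164) and *Srebf2* at -0.43 (adjusted p = 0.165). The 32 tested genes beside the apolipoprotein loci had a median of 0.05, with *Hapln4*, a neighbour of *Tm6sf2*, at -0.59 (adjusted p = 0.142) and *Bud13*, a neighbour of *Apoa5*, at -0.40 (adjusted p = 0.218).

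Markers of liver cell types differed between the genotypes to different degrees, and their part in the results above was not tested. Of 10 hepatocyte markers 8 were below 0 (50.0% of all genes were) and 0 passed. An unadjusted p under 0.05 was found for 3, all lower in LKO livers, against 5.36% of all genes in this direction. The median log2 fold change of the 10 was -0.07 beside -0.18 for *Apob* and -0.19 for *Apoc3*. Their summed level was 101216 to 119042 CPM in WT and 90515 to 103784 CPM in LKO livers. All 10 Kupffer cell markers were above 0 with a median of 0.38 beside 1.57 for *Pltp* and 1.24 for *Lpl*, and 0 passed. An unadjusted p under 0.05 was found for 9 of the 10, against 11.7% of all genes in either direction. Their sum was 140 to 190.4 CPM in WT and 170 to 294 CPM in LKO livers. Medians were 0.20 for 8 stellate cell, 0.11 for 8 endothelial and 0.19 for 6 cholangiocyte markers, of which 0 passed. In each of these lists 1 marker had an unadjusted p under 0.05, against 11.7% of all genes. This marker was higher in LKO livers in the stellate and endothelial lists and lower in the cholangiocyte list. Sums were 157 to 240 and 183 to 280.2 CPM for stellate cells, 202 to 268 and 217 to 271 CPM for endothelial cells, and 37.0 to 63.9 and 34.2 to 129 CPM for cholangiocytes in WT and LKO livers. Of 6 B cell markers (median 0.85), *Ighm* passed, lower in LKO livers (log2 fold change -1.78, adjusted p = 4.06e-06). The other 5 were above 0, 4 of them with an unadjusted p under 0.05, and had at most 26 reads per liver. The sum was 15.6 to 23.8 CPM in WT and 6.22 to 9.00 CPM in LKO livers, most of it *Ighm* (18.5 and 5.40 CPM on average).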

How the data were processed

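The authors isolated total RNA from liver, made KAPA mRNA HyperPrep libraries and sequenced them on a HiSeq4000. Per the labels' processing notes and the methods, reads were trimmed (Trimmomatic 0.36), aligned (HISAT2 2.1.0) to GRCm38.p6 and counted per gene (HTSeq 0.6.1). What the authors deposited are raw counts of reads, with no normalization or filter. Genes were matched to GENCODE M21 (54079 of 54232 rows), and *Marchf6* and *Tf* through RefSeq synonyms.

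Genes that exceeded 2 reads in 6 or more of 12 livers were scaled by TMM and tested with edgeR 4.0.16 (quasi-likelihood, genotype as the only term, Benjamini-Hochberg over 17509 genes) in R 4.3.3. The study used limma voom, which is an alternative here (limma 3.58.1), as is DESeq2 1.42.0. The SE is the log2 fold change over the square root of F, and log2 CPM used a prior count of 0.5. The fits across all genes and the permutation test of gene pairs were checked on simulated data. Groups come from the genotype labels, and replicates are separate mice. No molecular identifiers are described, so PCR copies of a fragment may have been counted as separate reads.

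The genes, lists and alternatives were chosen with earlier results of these data known. Named are the 10 genes, every related gene with an adjusted p under 0.05, the 2 genes of lowest p in each related list, the 5 genes most like *Apob* and *Apoa1*, and *Marchf6*. *Fabp2*, *Ighm* and the antisense or overlapping genes are outside this rule and were named after their values were seen. Of 246 listed symbols 243 were matched. Protein sequences were not used here.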

Additional observations from a re-analysis of the deposited data

Results flagged for a closer look

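A liver stood far from the other 5 of its genotype in 4 of 22 sets of values searched (10 genes and their summed share in each genotype), where chance gives about 1.1. The gap to the nearest liver, as a share of the range of the 6 livers, was 0.668 for *Apoa1* in LKO replicate 5, the lowest, and 0.813 for *Apoc3* in LKO replicate 6, the highest. It was 0.641 for *Apoe* in WT replicate 5, the highest, and 0.647 for the summed share of the 10 genes in LKO replicate 2, the lowest. Each of the 4 came from another liver. The log2 fold change of *Apoc3* remained below 0 whichever liver was left out, between -0.23 and -0.16.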

How the results depend on the processing

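Of the 10 genes, 1 passed, higher in LKO livers, with library totals alone, without a filter, with DESeq2 and without WT replicate 2, and 0 passed under the other alternatives. With each liver left out in turn, 0 to 1 of the 10 genes, 38 to 132 of all genes (fewest without WT replicate 5, most without WT replicate 3) and 0 to 5 of the related genes passed. The count of all genes was 147 (119 higher) with library totals alone, 114 (79 higher) without a filter and 351 (181 higher) with DESeq2, beside 75 (48 higher). DESeq2 called 11 related genes (4 higher). The replicate numbers belong to different mice and no pairing is stated, so same-numbered livers were not taken as pairs. They correlated by -0.07 to 0.14, and 3 of 6 correlated best with their own number, which does not settle whether they are paired. With the replicate number as a block, 97 of all genes (60 higher) and 5 related genes (4 higher) passed. The ratio of the summed share was 1.01 to 1.02 with each liver left out and 0.973 with the TMM-scaled total. The order per length kept all 10 places with each liver left out. The log2 fold changes remained below 0 under every alternative for *Apob* (-0.22 to -0.12) and *Apoc3* (-0.23 to -0.14) and above 0 for *Apoa4* (1.09 to 1.75), while those of the other 7 genes took both signs. The cause of these shifts was not tested. No scaling moved the median of all genes by more than 0.06 on the log2 scale. *Apoc2* had the fewest reads of the 10 genes, with 30 to 69 per liver.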

Other observations

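The 5 genes most like *Apoa4* over the 12 livers, looked up after its values were seen, were *Fyb2* (r = 0.94), *Capns1* (r = 0.93), *Adrm1* (r = 0.93), *Zwint* (r = 0.92) and *Secisbp2l* (r = 0.92). Within genotype the values of r were 0.90, 0.82, 0.94, 0.79 and 0.88 in the same order. These are the extremes of 7788 genes.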
